A study of Mus musculus with 10 samples.

Results

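The neurofilament genes Nefl, Nefm, Nefh, Ina and Prph encode the intermediate filament proteins of neurons. They were taken from the deposited expression table by gene name, and 5 of its 35275 genes are members. Motor cortex RNA was sequenced from C57BL/6 mice aged 22 days. The groups were 5 mice with an astrocyte-specific conditional knockout of membralin (KO) and 5 wild-type mice (WT). Membralin is the product of Tmem259 and sits in the membranes of the endoplasmic reticulum. The sources used here do not give the Cre driver or the alleles of the WT mice. By the label the deletion is in astrocytes, whereas the neurofilament genes are expressed by neurons.

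Neurofilaments are ropes of protein that fill large axons and set their calibre. The light chain (Nefl) is the core subunit, and the medium (Nefm) and heavy (Nefh) chains project long, phosphorylated tails from the filament. Alpha-internexin (Ina) co-assembles with these chains in central neurons and is made early in development, before the heavy chain becomes abundant. Peripherin (Prph) is found mainly in peripheral neurons and in neurons whose axons leave the brain and cord. Neurofilament protein released from injured axons is measured in blood and spinal fluid as a marker of axon damage, and misplaced neurofilaments are a feature of motor neuron disease.

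The feature that sets the heavy chain apart is a tail with many repeats of lysine, serine and proline, whose serines are phosphorylated. In the coding sequence of Nefh-201 (GENCODE M21, 3270 bases) the codons AAG or AAA, then TCN, then CCN, followed each other in frame 49 times on the coding strand. That was the highest count among 21739 genes with a coding sequence. Nefm held 4 of these repeats, and Nefl, Ina and Prph held 0. At least 1 repeat was found in 6.76% of all genes with a coding sequence. The stretch of 150 bases richest in them, in exon 4 of Nefh on chromosome 11 (chr11:4940920-4941069, GRCm38, minus strand), is shown because it is the part that no other member has at this density. Its 8 repeats are in capitals.
Nefh: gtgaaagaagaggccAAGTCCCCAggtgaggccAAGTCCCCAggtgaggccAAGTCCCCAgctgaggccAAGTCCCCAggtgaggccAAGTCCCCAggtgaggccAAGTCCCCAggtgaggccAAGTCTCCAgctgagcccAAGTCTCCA

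Promoter sequences were matched for 2 of the 5 members, Ina and Prph, in RefSeq for GRCm38.p6. They are shown because the levels of these genes in cortex were far apart, that of Ina among the highest and that of Prph among the lowest of the genes tested. Each window runs from 250 bases before to 50 bases after the start site, on the plus strand (chr19:47014431-47014730 and chr15:99054924-99055223). Capitals mark TATAAA and GGGCGG, each searched on both strands.
Ina: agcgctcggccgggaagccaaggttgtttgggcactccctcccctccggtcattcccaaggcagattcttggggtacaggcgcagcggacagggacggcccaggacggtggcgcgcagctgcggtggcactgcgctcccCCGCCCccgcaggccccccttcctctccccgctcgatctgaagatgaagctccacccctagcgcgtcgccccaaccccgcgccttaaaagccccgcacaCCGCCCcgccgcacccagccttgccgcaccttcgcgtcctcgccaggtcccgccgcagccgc
Prph: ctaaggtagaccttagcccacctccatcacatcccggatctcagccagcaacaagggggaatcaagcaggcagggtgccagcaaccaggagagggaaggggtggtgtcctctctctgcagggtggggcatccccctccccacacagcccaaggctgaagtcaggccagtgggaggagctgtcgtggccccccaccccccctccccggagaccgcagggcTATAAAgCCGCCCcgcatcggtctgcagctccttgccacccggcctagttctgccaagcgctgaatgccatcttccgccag
The Prph window held 1 TATAAA, which begins 31 bases before the start site, and the Ina window held 0. TATAAA was found in 13.6% of 32544 promoter windows of this length. GGGCGG, on the reverse strand, occurred in 2 places in the Ina window and 1 in the Prph window, and 35.9% of all windows held it. The window of Ina was 71.7% G and C and that of Prph 64.7%.

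The genes lie on 4 chromosomes, and one pair overlaps. Nefl (ENSMUSG00000022055) spans 68083863 to 68089095 on the plus strand of chromosome 14 in mm10. Nefm (ENSMUSG00000022054) spans 68082590 to 68124846 on the minus strand of the same chromosome, so its model encloses Nefl. The overlap comes from transcript Nefm-202, whose exon 4 covers 1108 of the 1147 bases of Nefl exon 1, 32.8% of the Nefl transcript. The library kit is not stated to keep strand, so fragments from those bases cannot be told apart. The sources used here do not say to which gene they were given. The length of 3680 bases in the table for Nefm equals that of Nefm-202, whereas Nefm-201 has 3334 bases and does not reach Nefl. At the shorter length, with the same fragments, the Nefm means would be 86.7 FPKM in KO and 100.2 FPKM in WT. Ratios of Nefm to other members depend on this length, and the ratio of KO to WT does not. Nefh (ENSMUSG00000020396) spans 4938754 to 4948064 on chromosome 11 and Prph (ENSMUSG00000023484) spans 99055174 to 99058978 on chromosome 15. Ina (ENSMUSG00000034336) spans 47014698 to 47025327 on chromosome 19, and 456 of its 3240 exonic bases overlap Nt5c2 on the opposite strand. No stretch of 50 bases was shared on the same strand between transcripts of different members.

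**Figure D1:**
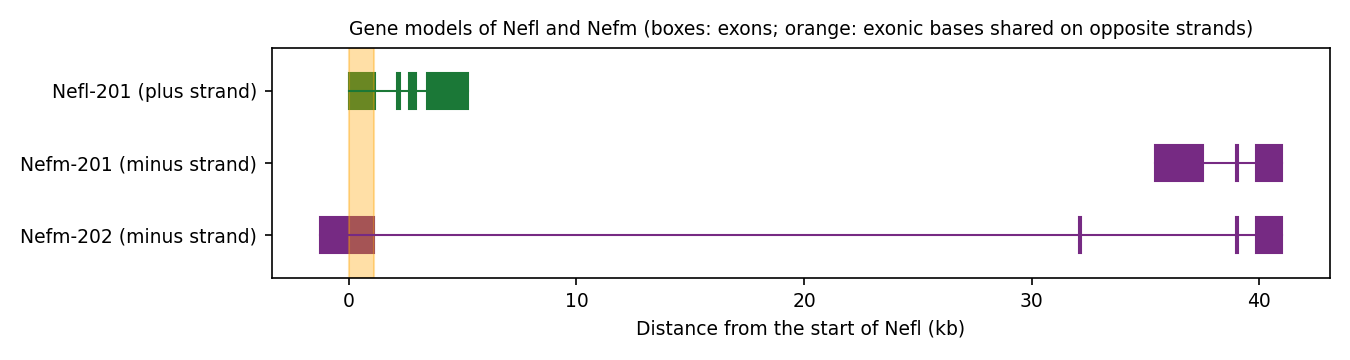
Gene models of Nefl and Nefm by distance from the start of Nefl (kb), with exons as boxes. The shaded 1108 bases are exonic in Nefl-201 and in Nefm-202 on opposite strands, and Nefm-201 lies apart from Nefl.

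The values are FPKM, fragments scaled to gene length and to the size of the library, so levels can be set side by side between genes. The libraries held between 22968013 and 27567361 fragments in KO and between 22793058 and 28827871 in WT. General neuron markers summed to between 2831 and 2977 FPKM in KO and between 2882 and 3206 FPKM in WT, but 4 of the 10 were called, all with groups that did not overlap. Eno2, a neuronal glycolytic enzyme, and Gad1 and Gad2, which make GABA, were higher (log2 fold changes 0.29, 0.57 and 0.91), and Camk2a, a kinase of excitatory neurons, was lower (-0.68; limma adjusted p between 0.0186 and 0.0352). Their part in the neurofilament values was not tested. The targeted gene Tmem259 measured 20.1, 18.5, 34.4, 16.9 and 26.2 FPKM in KO1 to KO5, against 25.5, 23.8, 25.01, 32.4 and 30.4 FPKM in WT1 to WT5. Between the groups Tmem259 did not pass (log2 fold change -0.27, limma adjusted p = 0.275), and KO5 also lay above WT1, WT2 and WT3. KO3 is the highest of the 10 libraries for the targeted gene and is called the library labelled KO3. Gfap was 106 FPKM in that library and between 426 and 673 FPKM in the other KO libraries, against 79.4 to 114 FPKM in WT. In both genes that library goes against its label, which is therefore in doubt, and every KO mean over 5 libraries includes it. The groups did not overlap in 7.55% of the genes tested. That count takes the library labelled KO3 as KO by definition, so it is no check of the label. Whether the label is right was not tested. Omp, a marker of olfactory tissue, reached at least 1 FPKM in 4 of the 5 KO libraries (not in KO5) and in 2 of the 5 WT libraries (WT3 and WT4). Its part in the results was not tested beyond the fits given with the members.

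The means of the neurofilament transcripts differed in both directions between KO and WT cortex, and none of the 5 differences passed the test over all genes. Nefh and Ina, the heavy chain and alpha-internexin, had higher means in KO (24.3 against 19.2 FPKM and 61.3 against 55.9 FPKM). Nefm, Nefl and Prph had lower means (78.6 against 90.8, 60.5 against 66.5 and 0.751 against 1.06 FPKM). A difference was called at a limma adjusted p under 0.05 (Benjamini-Hochberg, over 14497 genes), and 0 of 5 members were called where 13.3% of all genes tested were. At an unadjusted p under 0.05 there were 3 members, Nefm, Nefh and Ina, where 32.8% of all genes were, and limma voom on recovered fragments also called 0. The median log2 fold change of the members was -0.13, and that of all genes tested was 0.08. In bulk tissue fewer cells of a type and less RNA per cell cannot be told apart.

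**Figure D2:**
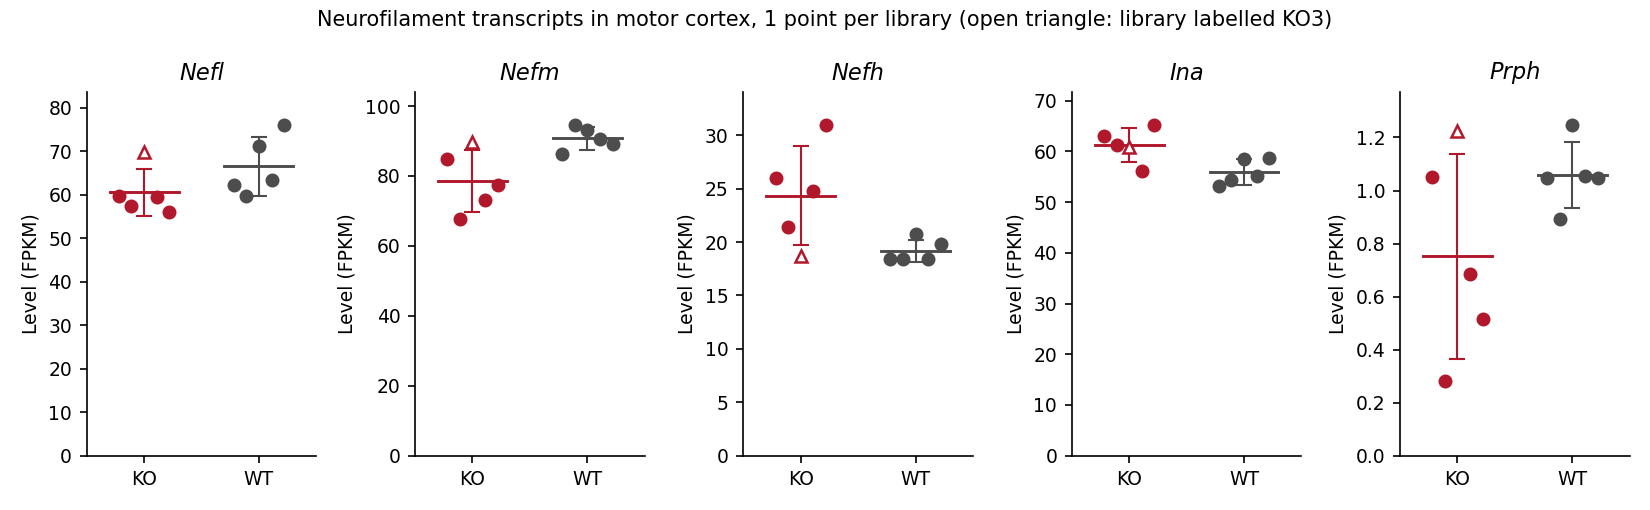
Level in FPKM of each neurofilament gene in the 5 KO and 5 WT libraries, with the mean and SD of each group. The library labelled KO3 (open triangle) is the highest KO value of Nefl, Nefm and Prph and the lowest of Nefh.

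Nefl, the core subunit, measured 59.7, 57.5, 69.8, 59.5 and 56.1 FPKM in KO1 to KO5. It measured 62.3, 59.7, 71.3, 63.4 and 76.0 FPKM in WT1 to WT5. KO2, KO4 and KO5 lay below the lowest WT level, KO1 was level with it, and the library labelled KO3 lay inside the WT range, so the groups overlapped. The means were 60.5 ± 5.40 FPKM in KO and 66.5 ± 6.84 FPKM in WT (SD, n = 5 each). The log2 fold change was -0.13 (95% interval -0.30 to 0.04, SE 0.08, limma adjusted p = 0.255), within the spread between mice. With median-of-ratios scaling it was -0.23, which did not pass either (limma adjusted p = 0.120).

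Nefm, the medium chain, measured 84.9, 67.6, 89.8, 73.2 and 77.4 FPKM in KO1 to KO5. WT1 to WT5 had 86.3, 94.6, 93.2, 90.5 and 89.2 FPKM. All KO libraries except the one labelled KO3 lay below every WT library. The means were 78.6 ± 8.90 FPKM in KO and 90.8 ± 3.27 FPKM in WT (SD, n = 5 each), a spread that was wider in KO. The log2 fold change of -0.21 (95% interval -0.37 to -0.05) missed the threshold (limma adjusted p = 0.0700), and the two-sided exact permutation p for this gene alone was 0.0238 (unadjusted). With median-of-ratios scaling Nefm passed, at -0.31 (limma adjusted p = 0.0344), where 946 of all genes were called lower.

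Nefh, the heavy chain, measured 26.0, 21.4, 18.7, 24.7 and 30.9 FPKM in KO1 to KO5. WT1 to WT5 lay close together at 18.4, 18.4, 20.7, 18.4 and 19.8 FPKM. Each KO library except the one labelled KO3 lay above all WT libraries, and KO5 stood highest. The group means were 24.3 ± 4.67 FPKM in KO and 19.2 ± 1.07 FPKM in WT (SD, n = 5 each). Nefh had the largest log2 fold change of the members that was positive, 0.31 (95% interval 0.08 to 0.55, SE 0.11, limma adjusted p = 0.0698). For this gene alone the two-sided exact permutation p was 0.0317 (unadjusted). With median-of-ratios scaling it was 0.22 (limma adjusted p = 0.177). Among all genes tested 12.7% changed by at least as much in either direction.

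Ina, alpha-internexin, measured 63.1, 61.3, 60.9, 56.2 and 65.2 FPKM in KO1 to KO5. It measured 53.1, 54.3, 58.5, 55.1 and 58.7 FPKM in WT1 to WT5. KO4 fell inside the WT range, and the other KO libraries lay above it, the library labelled KO3 included. The means were 61.3 ± 3.36 FPKM in KO and 55.9 ± 2.51 FPKM in WT (SD, n = 5 each). The log2 fold change of 0.13 (95% interval 0.02 to 0.25) did not pass (limma adjusted p = 0.110), and it was 0.03 when libraries were scaled by median of ratios (limma adjusted p = 0.763).

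Prph, peripherin, was close to the lower limit of the genes tested. It measured 1.05, 0.282, 1.23, 0.684 and 0.514 FPKM in KO1 to KO5 and 1.05, 0.893, 1.247, 1.06 and 1.05 FPKM in WT1 to WT5. These levels rest on 54, 14, 53, 31 and 22 fragments in KO1 to KO5, against 54, 48, 53, 53 and 48 fragments in WT1 to WT5. KO1 and the library labelled KO3 lay within the WT range and the other KO libraries below it. The exact 95% Poisson interval of the 14 fragments in KO2, 7.65 to 23.5, lies below that of the 48 fragments in WT2, 35.4 to 63.6, and covers counting error only. The difference over mice did not pass (log2 fold change -0.26 on the log2(FPKM + 1) scale, limma adjusted p = 0.207). With a pseudocount of 0.1 it was -0.57 (limma adjusted p = 0.200), and in limma voom on recovered fragments it was -0.65 (limma adjusted p = 0.167). Of 10 markers of cholinergic and peripheral neurons 6 passed the filter on low values, and the list summed to between 13.2 and 19.3 FPKM in KO and between 2.996 and 9.96 FPKM in WT. Without Th the sums overlapped, between 5.61 and 13.96 FPKM in KO and between 2.06 and 7.70 FPKM in WT. Slc18a3, the vesicular carrier of acetylcholine, and Th, the first enzyme of dopamine synthesis, were called higher, opposite in sign to Prph, and their part in its values was not tested.

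Without the library labelled KO3, 2 of the 5 members passed, where 26.0% of all genes did. Of the members 1 was higher, where 19.6% of all genes were, and 1 lower, where 6.36% were. Nefh was then called higher (25.8 ± 3.95 FPKM in KO, n = 4, against 19.2 ± 1.07 FPKM in WT, n = 5, SD; log2 fold change 0.40, limma adjusted p = 0.00773). Nefm was called lower (75.8 ± 7.29 FPKM in KO, n = 4, against 90.8 ± 3.27 FPKM in WT, n = 5, SD; log2 fold change -0.26, limma adjusted p = 0.0144). Nefl (-0.18, limma adjusted p = 0.0766), Prph (-0.35, limma adjusted p = 0.0554) and Ina (0.13, limma adjusted p = 0.106) did not pass. For Nefl, Nefm, Nefh and Prph that library lay at the end of the KO range nearest to WT, so these fits are no independent test. With a further library left out as well, Nefh and Nefm each passed in all 9 fits, where between 2407 and 3437 of all genes did. The log2 fold changes were 0.31 to 0.48 for Nefh and -0.32 to -0.21 for Nefm. All 9 fits leave out the library labelled KO3, so they repeat 1 removal. With that library kept and any 1 other left out, 0 of the 5 members passed, where between 2 and 1262 of all genes did.

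**Figure D3:**
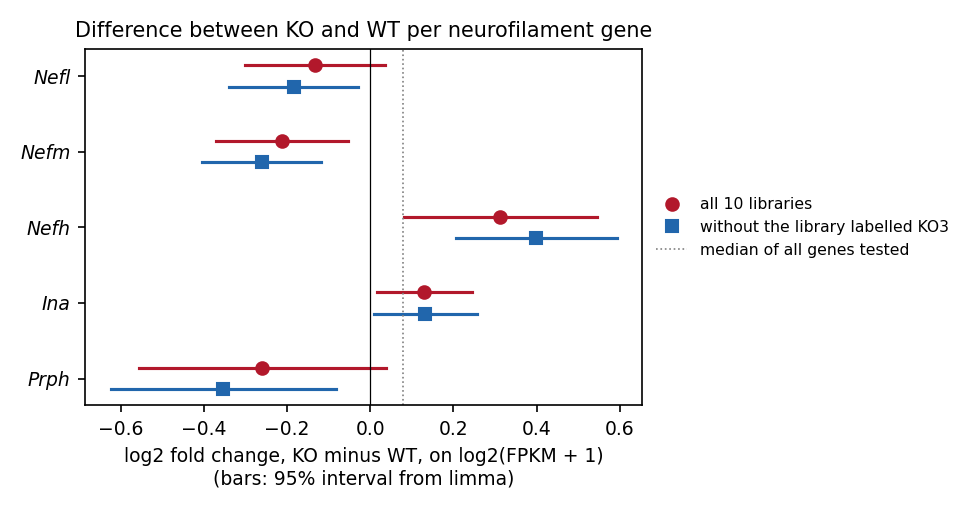
Log2 fold change between KO and WT on log2(FPKM + 1) for each neurofilament gene, with 95% intervals from limma, over all 10 libraries (circles) and without the library labelled KO3 (squares). Without it Nefh moves to 0.40 and Nefm to -0.26, while Ina stays at 0.13.

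The levels kept the order Nefm, then Nefl and Ina, then Nefh, then Prph in both groups. Nefm lay above 95.8% of the genes tested, Nefl above 93.9%, Ina above 93.2% and Nefh above 80.0%, whereas Prph lay above 9.45%. The neighbours Nefl and Ina changed places: Nefl was above Ina in all 5 WT libraries, and Ina was above Nefl in KO1, KO2 and KO5. In KO their means, 60.5 ± 5.40 and 61.3 ± 3.36 FPKM, did not differ beyond their spread. Together the 5 genes summed to 226 ± 13.8 FPKM in KO and 233 ± 10.8 FPKM in WT (SD, n = 5 each).

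Within that sum the shares of Nefh and Ina varied less between mice in WT than in KO. Ratios between members within a library do not depend on how libraries are scaled, and 7 were examined as a description, with no test. The ratio of Nefh to Nefm was 0.306, 0.317, 0.208, 0.338 and 0.400 in KO1 to KO5, against 0.213, 0.195, 0.222, 0.204 and 0.222 in WT1 to WT5. All KO libraries but the one labelled KO3 lay above WT. The ratio of Nefh to Nefl was 0.435, 0.373, 0.267, 0.415 and 0.551 in KO1 to KO5, against 0.295, 0.308, 0.291, 0.291 and 0.260 in WT1 to WT5. Again the library labelled KO3 alone lay inside the WT range. The ratio of Ina to Nefm was 0.788 ± 0.0892 in KO and 0.617 ± 0.0303 in WT (SD, n = 5 each), and it was the 1 ratio of the 7 whose groups did not overlap, with the library labelled KO3 lowest in KO at 0.678. Of the single genes tested, 7.55% had groups that did not overlap, and of the members 0 of 5. The ratio of Nefm to Nefl overlapped widely (1.298 ± 0.102 in KO and 1.38 ± 0.151 in WT, SD, n = 5 each). Ina and Nefh kept a nearly constant ratio in WT, 2.92 ± 0.0685, and a looser one in KO, 2.59 ± 0.471 (SD, n = 5 each). As shares of the summed FPKM, Nefh was 10.8 ± 2.07% in KO and 8.20 ± 0.180% in WT, Ina was 27.2 ± 1.66% in KO and 24.0 ± 0.115% in WT, and Nefm was 34.8 ± 1.97% in KO and 38.9 ± 1.87% in WT (SD, n = 5 each). Fragments in the stretch shared by Nefl and Nefm enter every ratio with either gene, and their part in it was not tested.

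**Figure D4:**
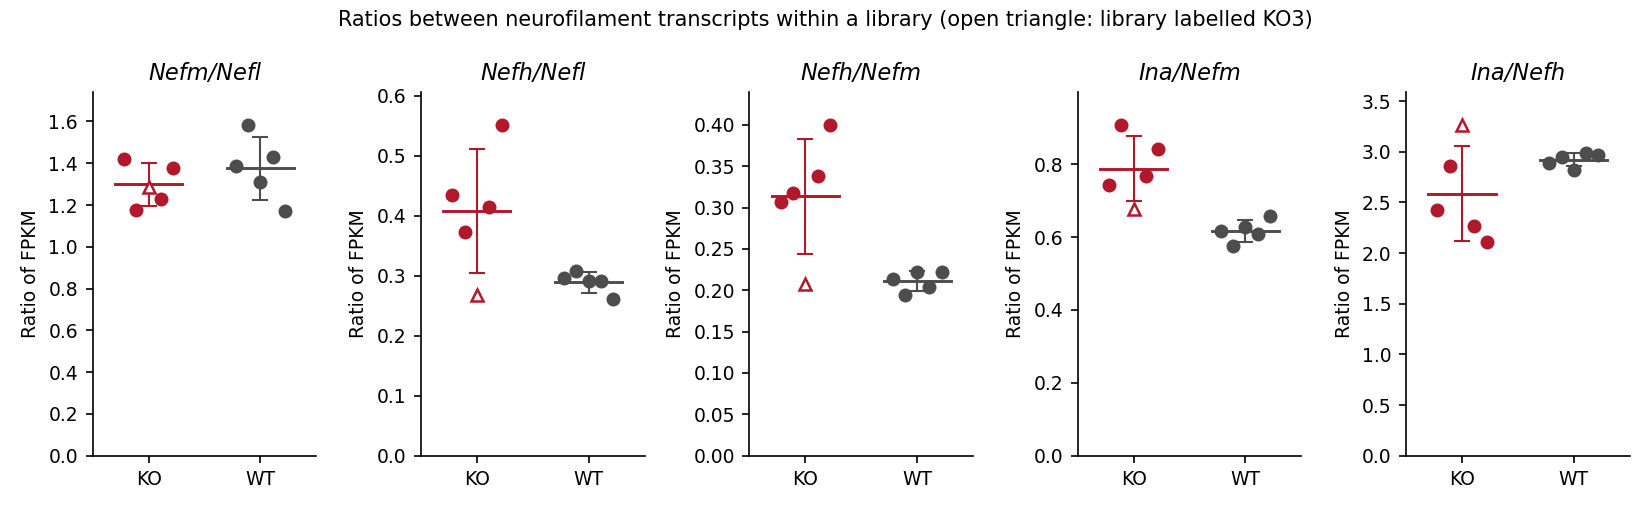
Ratio of FPKM between pairs of neurofilament genes in the 5 KO and 5 WT libraries, with mean and SD. For Nefh over Nefl and Nefh over Nefm 4 of the 5 KO libraries lie above all WT libraries and the library labelled KO3 (open triangle) lies among them.

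The labels name no batch, so libraries were split by Omp and by Y-linked transcripts, all but the first of these subsets chosen after seeing the data. Among the 6 libraries with Omp of at least 1 FPKM (4 KO, 2 WT) the log2 fold changes were 0.20 for Nefh, 0.09 for Ina, -0.13 for Nefl, -0.23 for Nefm and -0.28 for Prph, and 0 members passed. Among the 4 libraries with less Omp (1 KO, 3 WT) that of Nefh was 0.69. It rests on 1 KO library, KO5, which has the highest Nefh level of the 10, so it is given as a value with no replicate check. Y-linked genes summed to between 28.5 and 33.2 FPKM in 4 libraries (2 KO, KO4 and KO5, and 2 WT, WT4 and WT5). In the other 6 (3 KO, 3 WT) they summed to between 5.20 and 11.8 FPKM. The log2 fold change of Nefh was 0.51 in the libraries with more of them and 0.18 in those with less, neither of which passed (limma adjusted p = 0.0903 and 0.443). Adjusted for a score of olfactory bulb markers, Nefh was at 0.45 (limma adjusted p = 0.0823) and Nefm at -0.19 (limma adjusted p = 0.244).

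Markers of the neurons richest in neurofilaments were read beside these values. Parvalbumin interneurons and large layer 5 projection neurons carry much neurofilament protein in cortex. Of 8 parvalbumin interneuron markers Pvalb, a calcium-binding protein, was called lower (21.5 ± 5.17 FPKM in KO and 34.9 ± 10.03 FPKM in WT, SD, n = 5 each; limma adjusted p = 0.0338), and Tac1, a neuropeptide precursor, was called higher. Among WT libraries Tac1 was highest in WT2 (16.1 FPKM), as was the striatal marker Drd1 (19.3 FPKM). The median log2 fold change of the 8 was -0.13, against 0.08 over all genes tested, and 2 of them were above 0. The list summed to between 316 and 365 FPKM in KO and between 321 and 382 FPKM in WT. Most of that sum was Cplx1, with means of 228 FPKM in KO and 212 FPKM in WT. Of 10 layer 5 markers Bcl11b, a transcription factor of projection neurons that striatal neurons also express, was called higher, and the list summed to between 86.7 and 125 FPKM in KO and between 85.5 and 116 FPKM in WT. Of 7 olfactory bulb markers 0 passed in limma, all 7 had a log2 fold change above 0 (median 1.04, against 0.08 over all genes tested), 5 of them with an unadjusted p under 0.05, and their sum was between 7.65 and 54.6 FPKM in KO and between 5.07 and 26.5 FPKM in WT. Of 7 striatal markers 2 were called higher, Penk and Ppp1r1b, and all 7 had a log2 fold change above 0 (median 0.73). The list summed to between 468 and 612 FPKM in KO and between 192 and 605 FPKM in WT. Among WT libraries WT2 was the highest for each of these markers. Among markers of non-neuronal cells 1 of 7 for astrocytes (Aqp4), 2 of 7 for microglia (Aif1 and C1qa) and 3 of 8 for endothelial and meningeal cells (Itm2a, Lum and Ogn) were called higher and 0 lower. Of 8 myelin markers Mal, a myelin proteolipid, was called lower, and all 8 had a log2 fold change below 0 (median -0.29). The myelin list summed to between 1512 and 2156 FPKM in KO and between 1943 and 2388 FPKM in WT. The part of these cells and tissues in the neurofilament values was not tested.

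Genes that work on or beside neurofilaments were followed in 8 lists, of which 28 genes among 110 listed were called, 17 higher and 11 lower. Over all genes 9.77% were called higher and 3.51% lower. The split depended on scaling: with median of ratios it was 6 higher and 24 lower among the listed genes, and 607 higher and 946 lower over all genes, against 1417 and 509. Without WT1, without KO2 or without KO4 0 of the listed genes passed in limma, and over all genes 2 did in each of those fits (3943, 4101 and 3727 genes had an unadjusted p under 0.05), whereas 44 of the listed genes passed without the library labelled KO3. Adjusted for the score of olfactory bulb markers 0 passed, over all genes too (3463 had an unadjusted p under 0.05). The calls in the following lists have these limits.

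Of 10 linkers, chaperones and turnover factors of neurofilaments 1 rose and 1 fell (list median log2 fold change 0.06). Uchl1, a neuronal ubiquitin hydrolase, rose (244 ± 44.5 FPKM in KO and 173 ± 13.1 FPKM in WT, SD, n = 5 each; log2 fold change 0.48, limma adjusted p = 0.0250). Dst, a linker between filaments and the rest of the cytoskeleton, fell (25.1 ± 0.620 FPKM in KO and 28.6 ± 1.30 FPKM in WT, SD, n = 5 each), and its groups did not overlap. Hspb8, a small heat shock chaperone, was at 8.66 ± 1.82 FPKM in KO and 6.37 ± 0.507 FPKM in WT (SD, n = 5 each; limma adjusted p = 0.0625).

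Of 19 kinases and phosphatases that act on neurofilament tails 2 fell and 0 rose (median -0.05). Cdk5r2, which activates the kinase Cdk5, measured 208, 216, 306, 185 and 205 FPKM in KO1 to KO5, against 300, 294, 276, 284 and 344 FPKM in WT1 to WT5. The library labelled KO3 lay within WT and the other KO libraries below it (log2 fold change -0.44, limma adjusted p = 0.0351). Mapk10, a neuronal stress kinase of the JNK family, fell by 0.24 on the log2 scale with groups that did not overlap (limma adjusted p = 0.0216). Csnk1a1, a casein kinase, had a log2 fold change of 0.22 and did not pass (limma adjusted p = 0.0517). Of 3 proteins known to bind neurofilament mRNA, Hnrnpk rose (0.23, limma adjusted p = 0.0311), but with median-of-ratios scaling did not pass (0.13, limma adjusted p = 0.126). Tardbp (0.07, limma adjusted p = 0.398) and Arhgef28 (0.11, limma adjusted p = 0.496) did not pass, and the sign of Tardbp turned under both other scalings.

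Of 18 motor proteins of axonal transport 2 rose and 0 fell (median 0.01), Klc1, a light chain of kinesin (0.25, limma adjusted p = 0.0286), and Dynll1, a light chain of dynein (0.23, limma adjusted p = 0.0206). Neither passed with median-of-ratios scaling, where 0 of this list rose and 2 fell. Dync1li1, another dynein subunit, had a log2 fold change of 0.25 (limma adjusted p = 0.0551). Of 19 genes of axonal microtubules 3 rose and 2 fell (median 0.12). Those that rose were the tubulins Tubb3, Tubb2a and Tubb2b, with Tubb2b at 90.6 ± 10.3 FPKM in KO and 73.4 ± 5.73 FPKM in WT (SD, n = 5 each; limma adjusted p = 0.0359), and with either other scaling 0 of the list rose. Those that fell were the microtubule-binding proteins Map1a (-0.32, limma adjusted p = 0.0302) and Mapt, or tau (-0.19, limma adjusted p = 0.0356).

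Of 16 genes of the membrane skeleton, the initial segment and the node of Ranvier 6 fell and 0 rose (median -0.13), and with median-of-ratios scaling 10 fell and 0 rose. Kcnq3, a subunit of the potassium channel that damps repetitive firing, and Scn8a, the sodium channel of mature nodes, fell with groups that did not overlap (log2 fold changes -0.45 and -0.34, limma adjusted p = 0.0186 each). Kcnq3 measured 25.1, 23.5, 29.01, 21.3 and 21.7 FPKM in KO1 to KO5, against 36.3, 34.5, 34.0, 31.2 and 30.2 FPKM in WT1 to WT5. The library labelled KO3 was the KO library nearest to WT. Ank3, Sptan1 and Kcna2 also fell.

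Of 15 tested genes of axon injury and regrowth 7 rose and 0 fell (median 0.21). Atf3, a stress transcription factor, measured 1.02, 1.36, 0.413, 1.87 and 1.03 FPKM in KO1 to KO5, against 0.182, 0.332, 0.243, 0.431 and 0.0616 FPKM in WT1 to WT5. The library labelled KO3 was the 1 KO library within the WT range (log2 fold change 0.75, SE 0.16, limma adjusted p = 0.0206). Ecel1, a protease induced in injured neurons, averaged 11.4 ± 5.99 FPKM in KO and 3.49 ± 1.72 FPKM in WT (SD, n = 5 each; limma adjusted p = 0.0215). Sox11, a transcription factor of growing neurons, rose by 0.39 on the log2 scale (limma adjusted p = 0.0256). Jun, Gap43, Gal and Csf1 were the others that rose, and Sprr1a was below the filter. With median-of-ratios scaling 3 rose and 1 fell in this list. Of 8 other intermediate filament genes tested 3 rose. They were Gfap of astrocytes and Vim (1.91 and 1.46, limma adjusted p = 0.0186 each) and Lmna of the nuclear lamina (0.26, limma adjusted p = 0.0490). Lmna did not pass with median-of-ratios scaling.

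**Figure D5:**
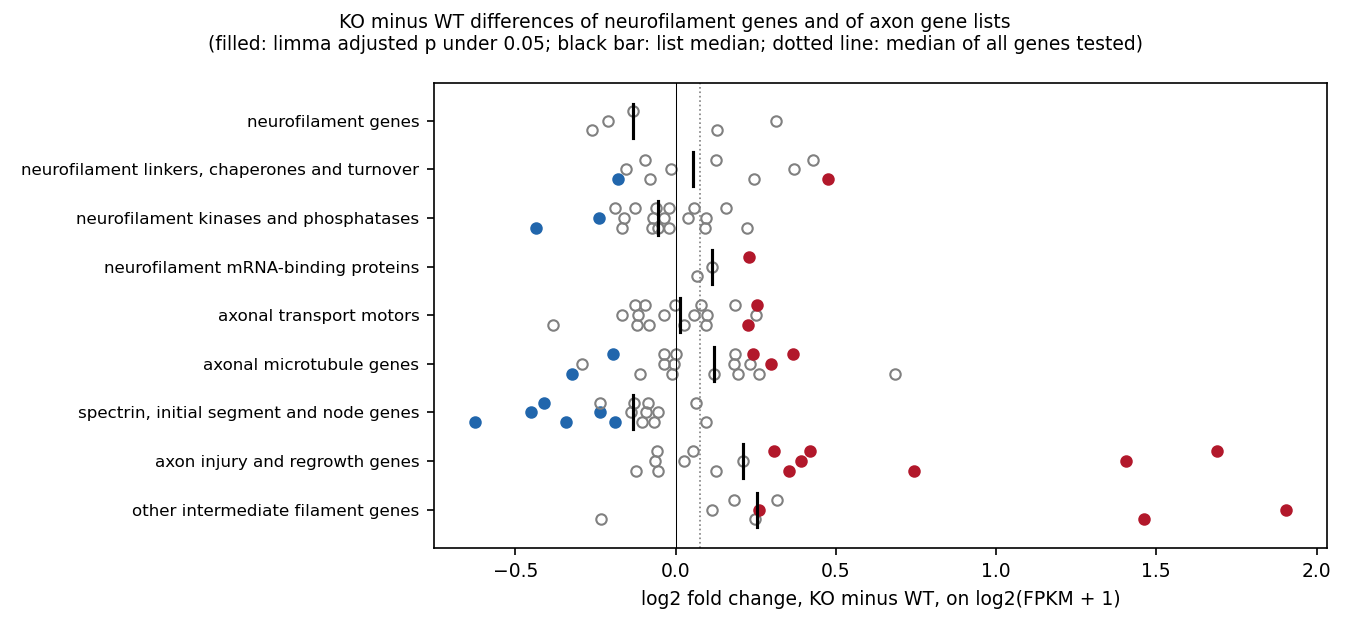
Log2 fold change between KO and WT on log2(FPKM + 1) for the neurofilament genes and 8 axon gene lists, with called genes filled and list medians as bars. The neurofilament genes lie between -0.26 and 0.31, none called, while in the lists Kcnq3 lies at -0.45 and Gfap at 1.91.

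The genes whose deviations from the group means were most like those of each member over the 10 libraries were listed as a description, with no test. The libraries differ in depth and in the levels of olfactory and striatal markers, whose part in these likenesses was not tested. Nearest to Nefh among 8287 genes were Coro1c, Mvd, Itfg3, Bdnf and Slc25a42 (r of 0.93 to 0.94). Nearest to Nefm were Josd1, Gpr62, Dnajb1, Synj2 and Spred1 (r of 0.88 to 0.96), and nearest to Nefl were Pamr1, E130309D14Rik, Pi4kb, Rgs6 and Rltpr (r of 0.90 to 0.95). For Ina they were 2210016L21Rik, Tsc22d1, Ccdc184, Tm2d3 and Ptms (r of 0.81 to 0.87). No gene was named for more than 1 member. Picked as the highest among 8287 genes over only 10 libraries, r values of this size can arise between unrelated genes. The deviations of Nefh were largest in the library labelled KO3 (-0.35) and in KO5 (0.35), so its r values lean on those libraries.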

How the data were processed

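Libraries from motor cortex RNA of 10 mice were made with NEBNext Ultra, per the labels' protocols. DESeq2 and mm10 appear in the submitters' processing notes without a stated role, and the sources used here name no aligner or counting tool. The deposited table gives the authors' FPKM per gene and library, with gene lengths, per the file headers. FPKM times length gave whole fragments in 100% of 210325 values above 0 (within 0.02), and none of the 45 library pairs differed by as little as counting noise (chi-square per gene at least 7.22). Nothing ties the mice to litters, so p-values measure the spread between these samples.

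Libraries were grouped by title. The KO libraries were set against WT with limma 3.58.1 (R 4.3.3, lmFit and trended eBayes), two-sided, on log2(FPKM + 1) for genes averaging 0.5 FPKM or more, with genotype alone in the model; this scale understates changes of low genes. Exact permutation tests used 252 assignments (smallest p 0.00794). Gene models were GENCODE M21, which matched 34490 of 35275 identifiers.

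Members and lists were chosen with earlier results of these data known. Named genes are the members, Tmem259, the 3 genes of lowest p in each axon list (1 of them is not reported here), and the 5 nearest genes to each member that averages 5 FPKM or more. Marker genes, Omp and the other called list genes were named after their values were seen. Alternatives covered pseudocount, filter, scaling, variance model, weights, block, covariates, batches and left-out libraries. Replicate numbers are not stated to pair the samples, and the main fit did not pair them. The numbers match between the groups on Y-linked transcripts, so whether they pair the samples is not settled. On data simulated for the comparison of KO and WT (14315 genes), limma called 50% of genes changed 1.25-fold and 92% of those changed 1.5-fold; real libraries vary more.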

Additional observations from a re-analysis of the deposited data

Results flagged for a closer look

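In 5 of 90 groups of 5 libraries examined, 1 library lay apart from the other 4 by more than 0.71 of the range of its group, where chance gives about 1 in 20 groups. The library labelled KO3 was the one in 4 of the 5. It had the highest KO level of Nefl, at 69.8 FPKM, with the next KO library at 59.7 FPKM, and the highest KO level of Cdk5r2, at 306 FPKM, with the next at 216 FPKM. It had the lowest KO mean log2(FPKM + 1) of the neurofilament mRNA-binding proteins, 4.24 with the next at 4.41, and of the axonal transport motors, 6.41 with the next at 6.42. WT1 had the highest WT level of Scn8a, 59.1 FPKM, with the next at 52.9 FPKM.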

How the results depend on the processing

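Nefl, Nefm, Nefh and Ina kept their direction in all 37 alternatives and Prph in all 36 that could test it. The alternatives of filter, variance trend, block and permutation leave the log2 fold change as it was, so the direction could not turn there. Many of the others share the removal of the library labelled KO3. Ina passed in none of the 37. Among fits of all libraries Nefm also passed with median-of-ratios scaling (-0.31) and with library weights (-0.25), and Nefh with library weights (0.34). Nefh passed with the olfactory bulb score without the library labelled KO3 (0.50), where 2195 of all genes did. Among libraries with Omp under 1 FPKM it was 0.69, but 1 KO library (KO5, the highest Nefh level) gives no test of its own there. Both were chosen after seeing the data, as were the fits split by Y-linked transcripts. With 1 or 2 libraries left out the log2 fold changes ranged from -0.22 to -0.084 for Nefl, -0.32 to -0.16 for Nefm, 0.22 to 0.48 for Nefh, 0.10 to 0.17 for Ina and -0.47 to -0.15 for Prph. Nefl passed in 1 of these fits (without KO3 and WT2, limma adjusted p = 0.0461), where 3314 of all genes did. Prph passed in 1 (without KO3 and KO1, limma adjusted p = 0.0144), where 3023 of all genes did.

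The 1926 genes called became 465 with no filter, 3557 with library weights, 1168 with a Y-linked covariate, 0 with the olfactory bulb score and 0 in exact permutation tests per gene (4363 with an unadjusted p under 0.05). They were 1 and 305 among libraries with Omp of at least and under 1 FPKM, 366 and 3 among those with more and less Y-linked transcript, and between 2 and 3769 with libraries left out. With the replicate number as a block they were 1271, of which no member was one; same-numbered libraries correlated between -0.06 and 0.14, and 2 of 5 KO libraries were closest to their own number. The sign of Tardbp turned with median-of-ratios scaling (-0.0244), quantile normalization (-0.0029), the olfactory bulb score with (-0.0032) and without (-0.0032) the library labelled KO3, and among libraries with Omp of at least 1 FPKM (-0.0143). That of Arhgef28 turned among libraries with less Y-linked transcript (-0.0087). The causes were not tested. Prph rests on 14 to 54 fragments per library, and its KO libraries spread beyond counting error.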
